A study of Mus musculus with 10 samples.

Results

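The neurotrophin and GDNF family receptors measured here were Ntrk2, Ntrk3, Ngfr, Ret, Gfra1, Gfra2, Gfra3 and Gfra4. Their rows were found by gene symbol, and all 8 had a row among the 24421 gene rows of the count tables. Their transcripts were counted in 10 pools of single mouse vagal neurons, which fall into 5 groups of 2 pools.

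The Trpv1 selection used Trpv1-tdTomato mice, in which a Cre recombinase from the Trpv1 gene switches on a red reporter placed in the Rosa26 locus. The red label therefore marks a cell that makes, or at some earlier time made, the Cre. It comprised 2 pools of 30 Trpv1+ nodose neurons, 2 pools of 30 Trpv1+ jugular neurons and 2 pools of 15 Trpv1- nodose neurons, all from 2 mice that carried both transgenes, and which mouse gave which pool is not stated. The capsaicin selection used C57BL/6 mice without a reporter. Its nodose pools held 14 and 15 cells that answered both α,β-methylene-ATP, a P2X receptor agonist, and capsaicin, the TRPV1 agonist, whereas its jugular pools held 15 and 16 cells that answered capsaicin alone. The ages of the mice were not used here. The 2 selections were prepared and sequenced at different cores, from different mice and at different depths. Only cells of the capsaicin selection were loaded with a calcium dye and exposed to the agonists before they were picked. The authors state that this may have changed the expression of some genes. Selection, agonist exposure, core, strain, depth and cell number therefore cannot be told apart. Pools of the Trpv1 selection held 148452506 to 167704327 counts and those of the capsaicin selection 17666710 to 30810863. Hence 3 counts, taken as the limit that a count of 0 allows, stood for 0.0116 to 0.0154 CPM (counts scaled to a common library size) in the first and 0.118 to 0.176 in the second. Each pool is the average of a few cells that were picked by hand, and fewer cells of a type and less RNA per cell cannot be told apart in it. Nothing says whether the pools of a group came from separate animals, so p-values measure the spread between pools only.

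The labels were first checked against marker genes. The summed level of 7 sensory neuron markers was 5590 to 12800 CPM over the 10 pools. Trpv1 was at 118 to 202 CPM in Trpv1+ nodose, 17.8 to 25.8 in Trpv1+ jugular, 213 to 248 in capsaicin nodose and 70.6 to 223 in capsaicin jugular pools, against 0.0334 to 0.0348 in the Trpv1- nodose pools. The markers P2rx2 and Hoxb5 of placode-derived nodose neurons summed to 295 CPM or more in every nodose pool and to 0.432 CPM or less in every jugular pool. The 3 markers of crest-derived jugular neurons (Prdm12, Tac1 and Prdm8) summed to 287 CPM or more in every jugular pool and to 1.0 CPM or less in every nodose pool. The markers thus followed the labels in all 10 pools, but part of this was fixed beforehand. Cells of the capsaicin selection were picked by their answers to the P2X agonist and capsaicin, so P2rx2 and Trpv1 restate that choice there. Hoxb5 and Prdm12 were already known to differ between ganglia in these same pools, so they are no independent check. In the Trpv1 selection, picked without agonists, P2rx2 was at 356 and 244 CPM in Trpv1+ nodose against 0.0732 and 0.0525 CPM in Trpv1+ jugular pools. Of 12 genes listed for satellite glia and Schwann cells, Apoe, Fabp7, S100b and Pmp22 reached 10 CPM in all 10 pools. The list summed to 2930 to 3990 CPM in pools selected by tdTomato or its absence and to 1410 to 1860 CPM in capsaicin pools. The defining glial genes Erbb3 and Sox10 were at or below 0.0257 and 0.177 CPM in the 8 TRPV1-selected pools. In the Trpv1- nodose pools Sox10 was at 10.2 and 2.24 CPM.

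Neurotrophins act through Trk receptor tyrosine kinases and through p75, a member of the TNF receptor family. TrkB, encoded by Ntrk2, binds BDNF and NT-4, TrkC, encoded by Ntrk3, binds NT-3, and p75, encoded by Ngfr, binds all neurotrophins and can work beside a Trk. The GDNF family signals through the receptor tyrosine kinase Ret, which is recruited by a co-receptor anchored in the membrane by a lipid. GFRα1 prefers GDNF, GFRα2 neurturin, GFRα3 artemin and GFRα4 persephin. In vagal ganglia, BDNF and TrkB are known for the survival of placode-derived nodose neurons, and artemin and GFRα3 are known from peptidergic nociceptors of neural crest origin.

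On GRCm38 (GENCODE vM21) the 8 genes lie on 8 chromosomes. Ntrk2 spans chr13:58806569-59133970 on the plus strand and Ntrk3 chr7:78175959-78738012 on the minus strand. Ngfr spans chr11:95568818-95587735, minus strand. Ret spans chr6:118151745-118197718, minus strand. Gfra1 spans chr19:58235604-58455909, minus strand, Gfra2 chr14:70890120-70979838, plus strand, Gfra3 chr18:34689898-34720387, minus strand, and Gfra4 chr2:131039632-131043088, minus strand. Reads were counted over whole genes. Full-length and truncated forms of Ntrk2 (7 coding transcripts) and Ntrk3 (6 coding transcripts), of which the truncated ones lack the kinase, therefore contribute to 1 value. Gfra1 shares 416 exon bases with the antisense gene Gm16277 and Gfra4 shares 80 with Mir6973b. Whether strand was used in the counting is not given in the sources used here, so reads over those bases cannot be assigned.

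**Figure D1:**
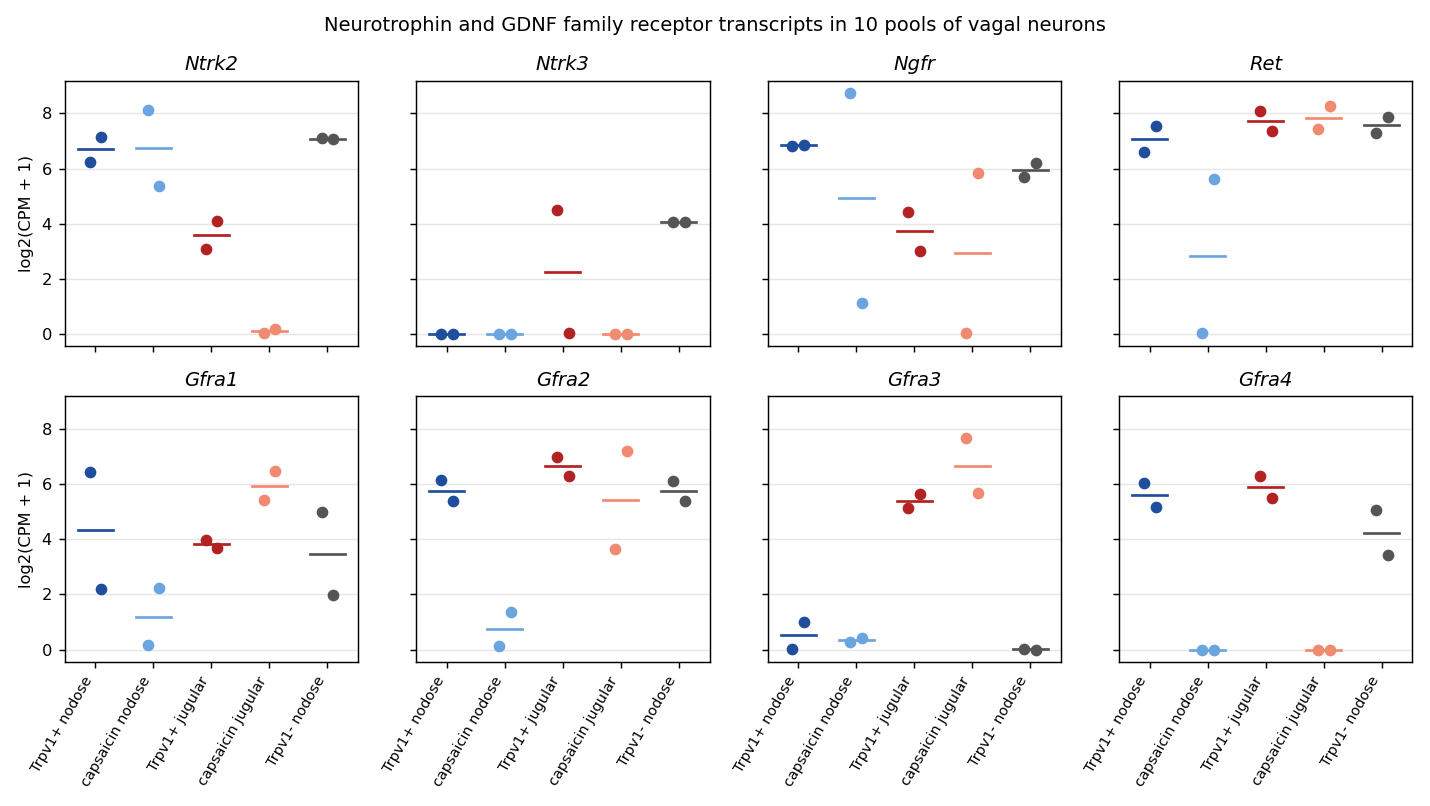
Level of each receptor gene, as log2(CPM + 1), in the 5 groups of vagal neuron pools, where each point is 1 pool and each bar is the mean of the 2 points. Gfra3 is at 1.03 CPM or less in every nodose pool and at 34.4 CPM or more in every jugular pool, Ntrk2 runs the other way, and Gfra4 is at 0 in the 4 capsaicin pools.

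The neurotrophin receptors came first. Ntrk2 was the receptor transcript found at 40.2 CPM or more in every nodose pool. It was at 75.3 and 140.1 CPM in Trpv1+ nodose, 279 and 40.2 CPM in capsaicin nodose, and 136 and 132.5 CPM in Trpv1- nodose neurons. In Trpv1+ jugular neurons it was at 7.56 and 16.2 CPM, and in capsaicin jugular neurons 1 and 3 reads were counted, or 0.0392 and 0.125 CPM. Each of the 6 nodose pools was above each of the 4 jugular pools. How many of all genes split in this way was not computed, but 10.9% did not overlap between ganglia in both selections and in the same direction. The 3 nodose groups overlapped one another, whereas Trpv1+ jugular neurons stood above capsaicin jugular neurons without overlap.

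For Ntrk2 the nodose over jugular difference was 3.17 ± 0.90 (log2 fold change ± SE, 2 against 2 pools) with the Trpv1 selection and 10.6 ± 2.34 with the capsaicin selection. The latter rests on 4 jugular reads against 7387 nodose reads. Their ratio in CPM was 2220, with an exact binomial 95% interval of 868 to 8160 that covers counting error only. Fitted over the 8 pools with the selection as a covariate, the difference was 6.77 ± 2.16. In edgeR's quasi-likelihood test with Benjamini-Hochberg adjustment over all genes tested, the adjusted p was 0.321, 0.352 and 0.276 in these 3 fits, and Ntrk2 did not pass the threshold of 0.1. The DESeq2 test called it in the capsaicin selection (adjusted p = 4.16e-04) and over both selections (adjusted p = 8.16e-05), and edgeR without the low-count filter called it in the same 2 fits (adjusted p = 0.0256 and 0.0197), where it called 1% and 1.42% of all genes. The interaction, the ganglion difference of the Trpv1 selection minus that of the capsaicin selection, was -7.42 ± 2.19 for Ntrk2, which missed the threshold in edgeR (adjusted p = 0.478) and passed it in DESeq2 (adjusted p = 0.00207).

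Ntrk3 had a lower mean CPM than Ntrk2 in every group, but not in every pool. In the first Trpv1+ jugular pool it was at 21.5 CPM and Ntrk2 at 7.56 CPM. No Ntrk3 read was counted in the 2 Trpv1+ nodose pools, the 2 capsaicin nodose pools and the 2 capsaicin jugular pools. The Trpv1- nodose pools held 15.75 and 15.96 CPM, from 4075 and 3825 reads. The Trpv1+ jugular pools held 21.5 and 0.0283 CPM, so that 1 pool carried nearly all the reads of that group. The mean of the Trpv1- nodose pools, 15.9 CPM, was at least 1051-fold above the floor of 3 counts per library in the Trpv1+ nodose pools. That floor covers counting error only. Among genes that reached 10 CPM in a Trpv1+ nodose pool, 22.5% were under 1 CPM in the other. In the comparison of Trpv1+ with Trpv1- nodose neurons, edgeR gave an adjusted p of 0.366 (unadjusted p = 0.0117). DESeq2 gave one of 4.05e-07, so the call depended on the tool. Some markers of other cells were also higher in the Trpv1- than in the Trpv1+ nodose pools. The 6 fibroblast genes summed to 14.4 to 19.3 CPM in the former and 0.221 to 7.81 CPM in the latter, with Col3a1 at 12 and 15.2 against 0.139 and 0 CPM, Sox10 was at 10.2 and 2.24 against 0 and 0.177 CPM, and Mbp was at 15.1 and 27.3 against 0.371 and 5.93 CPM. The glial sums were 2960 to 3340 against 3370 to 3490 CPM. The part of other cells in the Ntrk3 level was not tested. Ntrk3 did not pass the low-count filter in the comparisons between ganglia, where it stays a description.

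Ngfr was even between the pools of the Trpv1+ nodose group and uneven in the capsaicin pools. It was at 112 and 115 CPM in Trpv1+ nodose, 20.7 and 7.09 CPM in Trpv1+ jugular, and 50.4 and 73.0 CPM in Trpv1- nodose neurons. The capsaicin nodose pools were at 427 and 1.17 CPM, and the capsaicin jugular pools at 0.0392 and 56.2 CPM. In the Trpv1 selection the nodose pools lay above the jugular pools without overlap, and in the capsaicin selection the groups overlapped. The ganglion difference was 3.03 ± 0.88 in the Trpv1 selection (edgeR adjusted p = 0.321), 2.68 ± 3.19 in the capsaicin selection (adjusted p = 1) and 2.89 ± 1.71 over both (adjusted p = 0.816). Without the first capsaicin nodose pool the capsaicin difference was -5.14, the opposite direction. Glia also make p75. The glial sums of the Trpv1+ nodose pools (3370 to 3490 CPM) lay within the range of the Trpv1+ jugular pools (2930 to 3990 CPM). Single glial genes moved either way: Fabp7 was at 590 and 299 CPM in Trpv1+ nodose against 177 and 231 CPM in Trpv1+ jugular pools, and S100b at 166 and 189 against 421 and 356 CPM. In the capsaicin nodose pools, the first of which held most of the Ngfr, the list summed to 1410 to 1860 CPM. In the first and second of these pools Mbp was at 65.0 and 0.351 CPM, Fabp7 at 99.5 and 60.8, Apoe at 271 and 238, Pmp22 at 918 and 1030 and S100b at 51.6 and 535 CPM. The part of glial RNA in Ngfr was not tested.

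The GDNF receptor genes followed another pattern. Ret, the shared signalling receptor of the family, was at 95 CPM or more in 8 of the 10 pools. It was at 95.4 and 186 CPM in Trpv1+ nodose, 271 and 163 CPM in Trpv1+ jugular, 173 and 305 CPM in capsaicin jugular, and 157 and 233 CPM in Trpv1- nodose neurons. The exceptions were the capsaicin nodose pools, with 1 read in the first (0.0417 CPM) and 817 reads in the second (47.8 CPM). The other 4 groups overlapped their neighbours in the order of levels, and the capsaicin nodose group stood below them without overlap. With the Trpv1 selection the nodose over jugular difference was -0.62 ± 0.51, and with the capsaicin selection it was -3.86 ± 2.44, with edgeR adjusted p of 0.806 and 0.712. Without the second capsaicin nodose pool the latter was -12.5, and the interaction of ganglion and selection for Ret then passed the threshold (log2 difference 12.04, edgeR adjusted p = 0.076). The capsaicin nodose arm is then 1 pool with 1 Ret read, assumed to vary like the other groups. With all 8 pools the interaction was 3.25 ± 2.41 (adjusted p = 0.705).

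Gfra3, which encodes the artemin co-receptor, was found mainly in the jugular pools. Its level was 34.4 and 49.4 CPM in Trpv1+ jugular and 202 and 50.5 CPM in capsaicin jugular neurons. The nodose pools were at 0.0154 and 1.03 CPM (Trpv1+), 0.208 and 0.351 CPM (capsaicin) and 0.0116 and 0 CPM (Trpv1-), from 0 to 209 reads each. Each of the 4 jugular pools was above each of the 6 nodose pools. The capsaicin jugular pools lay above the Trpv1+ jugular pools, narrowly so at the closest pair (50.5 against 49.4 CPM). Of all genes tested, 10.9% did not overlap between ganglia in both selections and in the same direction. The share of genes split as 6 against 4 pools was not computed.

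In the Trpv1 selection the nodose over jugular difference of Gfra3 was -6.33 ± 2.57, in the capsaicin selection -9.14 ± 1.96 and over both selections -7.69 ± 1.87. Counted over both pools of a group, the jugular level was 79.1 times the nodose level in the Trpv1 selection (exact binomial interval 69.1 to 91.0, counting error only) and 479 times in the capsaicin selection (interval 268 to 961). The adjusted p of edgeR's quasi-likelihood test was 0.437, 0.352 and 0.154, above the threshold in each fit. The lowest adjusted p with a pool left out of the joint fit was 0.104, without the second Trpv1+ nodose pool, which held 209 of the 212 Trpv1+ nodose reads. DESeq2 called Gfra3 in all 3 comparisons, with adjusted p of 0.0201, 0.00196 and 9.05e-08. The interaction was 2.88 ± 2.74 (edgeR adjusted p = 0.841) and became -2.07 without the second Trpv1+ nodose pool. Without that pool the difference in the Trpv1 selection was -11.38. Gfra3 did not pass the low-count filter in the comparison of Trpv1+ with Trpv1- nodose neurons.

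Gfra2, the neurturin co-receptor, was broadly present outside the capsaicin nodose neurons. It was at 69.9 and 40.4 CPM in Trpv1+ nodose, 127 and 78.0 CPM in Trpv1+ jugular and 68.9 and 41.3 CPM in Trpv1- nodose neurons. The capsaicin jugular pools were at 11.4 and 145 CPM. The capsaicin nodose pools held 2 and 27 reads, or 0.0834 and 1.58 CPM, and stood below every other pool. The nodose over jugular difference was -0.90 ± 0.67 in the Trpv1 selection, -7.10 ± 2.82 in the capsaicin selection and -3.93 ± 2.11 over both (edgeR adjusted p = 0.779, 0.356 and 0.743). DESeq2 called it in the capsaicin selection (adjusted p = 0.0337) and over both selections (adjusted p = 0.0641). The interaction was 6.23 ± 2.45, with an adjusted p of 0.478 in edgeR and 0.0996 in DESeq2. Leaving out 1 pool moved the capsaicin difference between -10.0 (without the second capsaicin nodose pool) and -4.22 (without the second capsaicin jugular pool), and the joint one between -5.59 and -2.23. In the nodose ganglion Trpv1+ and Trpv1- neurons differed by 0.02 ± 0.77, a value smaller than its own error.

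Gfra1, the GDNF co-receptor, differed widely between the 2 pools of each nodose group. The 2 pools were at 86.4 and 3.59 CPM in Trpv1+ nodose and at 30.5 and 2.92 CPM in Trpv1- nodose neurons. They were at 14.8 and 11.9 CPM in Trpv1+ jugular and at 41.6 and 87.4 CPM in capsaicin jugular neurons, whereas the capsaicin nodose pools held 0.125 and 3.69 CPM. The ganglion difference was 1.74 ± 1.74 in the Trpv1 selection, -5.61 ± 2.59 in the capsaicin selection and -1.86 ± 3.29 over both (edgeR adjusted p = 0.867, 0.455 and 0.993). Without the first Trpv1+ nodose pool the difference in the Trpv1 selection was -1.89, and that between Trpv1+ and Trpv1- nodose neurons was -2.2, against 1.42 ± 1.92 with all pools. The interaction was 7.42 ± 3.28 (adjusted p = 0.483 in edgeR and 0.0591 in DESeq2). DESeq2 also called Gfra1 in the capsaicin selection (adjusted p = 0.0982).

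**Figure D2:**
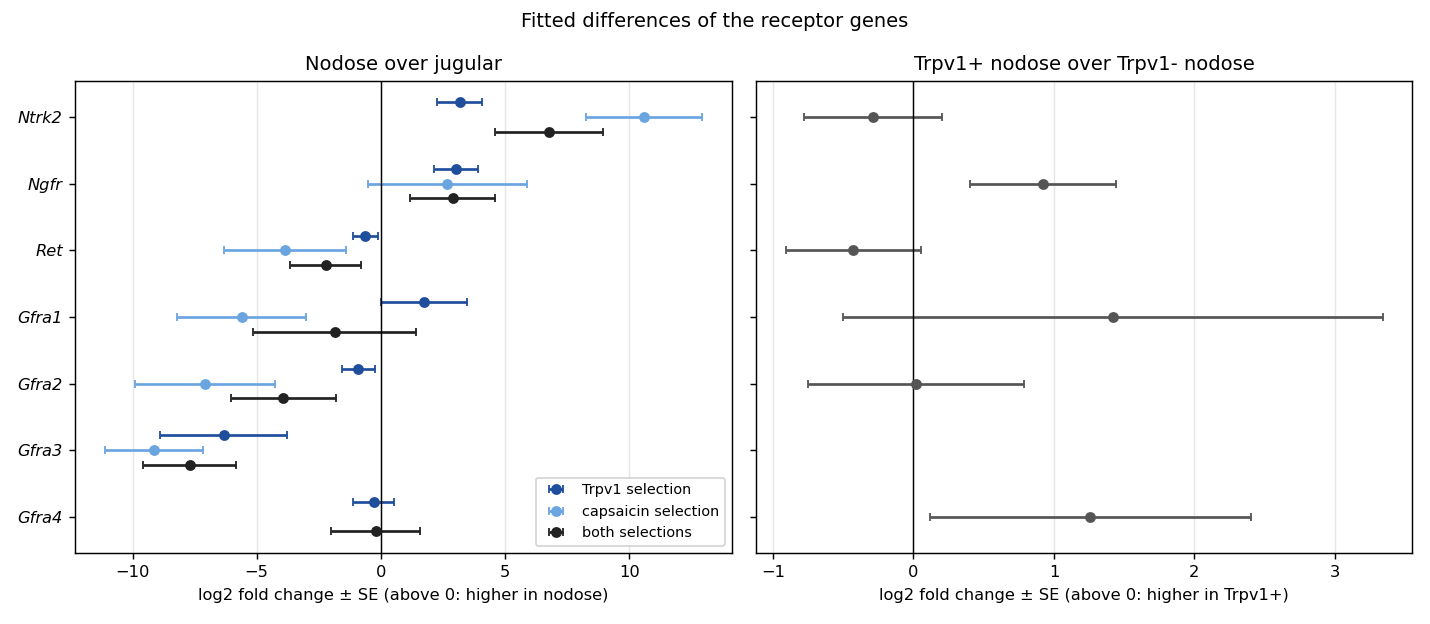
Fitted log2 fold change ± SE from edgeR for the receptor genes tested, nodose over jugular on the left (2 against 2 pools per selection, 8 pools jointly) and Trpv1+ over Trpv1- nodose on the right (2 against 2 pools). Ntrk2 and Gfra3 lie on opposite sides of 0 in all 3 fits on the left, no point shown passed an adjusted p of 0.1, and a missing point is a gene not tested there (Ntrk3 is left out because its fit meets a group at 0).

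Gfra4, the persephin co-receptor, separated the selections and not the ganglia. In the Trpv1 selection it was at 64.9 and 35.3 CPM in Trpv1+ nodose, 77.4 and 44.2 CPM in Trpv1+ jugular and 32.3 and 9.71 CPM in Trpv1- nodose neurons, from 2326 to 17976 reads. In the 4 capsaicin pools no read was counted, which by counting error alone allows at most 0.118 to 0.176 CPM. The selections did not overlap. The comparison of tdTomato with capsaicin selection, 4 against 4 pools with the ganglion as a covariate, was added after these counts were seen, and so its result for Gfra4 is a description. In it Gfra4 was higher in the Trpv1+ pools by edgeR's quasi-likelihood test (adjusted p = 0.0148), the 1 receptor gene of 7 tested to be called, where 4.95% of the 10670 genes tested were called in that direction. The mean of 55.4 CPM was at least 408-fold higher than the floor of 3 counts per library, 0.136 CPM, a floor that covers counting error only. The median log2 difference over all genes in this comparison was 0.96. The agonist exposure, core, strain, depth and cell number change with the selection. Of 3075 genes that were at 9.7 CPM or more in all 6 pools of the Trpv1 selection, 13 (0.423%) had no read in the 4 capsaicin pools. Gfra4 is among them, its own lowest level set the cut, and its pattern had been seen. That share is therefore a description. With counts thinned to 17666710 reads per pool, edgeR's adjusted p for Gfra4 was 0.0213. Thinning evens the number of reads only, and the part of cell number, core or library preparation in these zeros was not tested. Between ganglia Gfra4 differed by -0.29 ± 0.83 in the Trpv1 selection (adjusted p = 0.973), and Trpv1+ nodose pools lay above Trpv1- nodose pools with a difference of 1.26 ± 1.14 (adjusted p = 0.855).

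Over the receptor genes together, none of the 7 tested in the Trpv1 selection was called by edgeR (35 of 10990 genes, 0.318%, were called in either direction), and 2 had an unadjusted p under 0.05, as did 11.9% of all genes. In the capsaicin selection 0 of 6 were called, as were 0 of 8181 genes (0%), with 2 at an unadjusted p under 0.05 (14.1% of all genes). Between Trpv1+ and Trpv1- nodose neurons 0 of 7 were called (0.0527% of all genes), with 1 at an unadjusted p under 0.05 (11.1% of all genes). In the joint fit 0 of 7 were called (0.825% of all genes), with 2 at an unadjusted p under 0.05 (8.19% of all genes). For the interaction 0 of 7 were called (0% of all genes), with 3 at an unadjusted p under 0.05 (10.3% of all genes). DESeq2 called 1, 4, 1, 3 and 3 of them in these 5 comparisons, where it called 3.44%, 6.78%, 2.26%, 8.34% and 8.36% of all genes. In the Trpv1 selection the median size of the log2 difference of the receptor genes was 1.74, beside 1.18 over all genes tested. It was 6.35 beside 1.35 in the capsaicin selection and 2.89 beside 1.36 in the joint fit. It was 0.92 beside 1.08 between Trpv1+ and Trpv1- nodose neurons and 3.25 beside 2.57 for the interaction. Between the selections it was 1.79 beside 2.05. The receptor genes were chosen with earlier results of these data known, so these medians are a description.

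Groups of 2 pools often do not overlap. In the Trpv1 selection 4 receptor genes did not overlap between ganglia (Ntrk2 and Ngfr higher in nodose, Gfra2 and Gfra3 higher in jugular), as did 42.1% of all genes tested. In the capsaicin selection there were 5 (Ntrk2 higher in nodose, Ret, Gfra1, Gfra2 and Gfra3 higher in jugular), against 42.1% of all genes, and between Trpv1+ and Trpv1- nodose neurons 3 (Ngfr, Gfra4 and, lower in Trpv1+, Ntrk3), against 40.7%. In both selections, and in the same direction in each, Ntrk2, Gfra2 and Gfra3 did not overlap between ganglia, as held for 10.9% of all genes. The spread within groups sets how far these counts can be read. Among genes that reached 10 CPM in a pool, 22.5% in Trpv1+ nodose, 17.4% in Trpv1+ jugular, 44.3% in capsaicin nodose, 27.3% in capsaicin jugular and 14.6% in Trpv1- nodose neurons were under 1 CPM in the other pool of their group.

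Levels can be compared between genes once divided by transcript length. Per kilobase (kb) of the longest coding transcript, the Trpv1+ nodose pools had Gfra4 at 35.1 ± 14.7 CPM per kb (SD, n = 2), Gfra2 at 15.9 ± 6.01, Gfra1 at 9.69 ± 12.6 and Gfra3 at 0.26 ± 0.357, beside Ret at 25.8 ± 11.8. In the Trpv1+ jugular pools the order of the means was Gfra4 (42.6 ± 16.5 CPM per kb), Gfra2 (29.5 ± 9.94), Gfra3 (21.0 ± 5.32) and Gfra1 (2.87 ± 0.44). The first 2 of that order changed places when all exon bases of a gene were used as its length (28.1 for Gfra4 and 28.9 for Gfra2). In that group's second pool Gfra3 (24.7) was above Gfra2 (22.5), and with all exon bases as the length above Gfra4 too. In capsaicin jugular pools Gfra3 was at 63.1 ± 53.5 CPM per kb, Gfra2 at 22.5 ± 27.2 and Gfra1 at 13.9 ± 6.98, and the order differed between the pools: Gfra3 led with 101 in the first, and Gfra2 with 41.7 over Gfra3 with 25.3 in the second. In capsaicin nodose pools all 4 co-receptor genes had a mean under 1 CPM per kb, from 0 for Gfra4 to 0.411 for Gfra1, and Ret was at 4.38 ± 6.19. The Trpv1- nodose pools had Gfra2 at 15.9 ± 5.61 and Gfra4 at 14.7 ± 11.2 CPM per kb, closer than their spread, and Gfra3 at 0.0029 ± 0.0041. Among the neurotrophin receptors of the Trpv1+ nodose pools, Ngfr was at 33.0 ± 0.732 and Ntrk2 at 12.3 ± 5.24 CPM per kb. In the Trpv1+ jugular pools Ngfr was at 4.03 ± 2.79, Ntrk2 at 1.36 ± 0.701 and Ntrk3 at 0.546 ± 0.77 CPM per kb. The dT-primed cDNA may cover long transcripts unevenly, and coverage along the transcript was not analysed here.

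**Figure D3:**
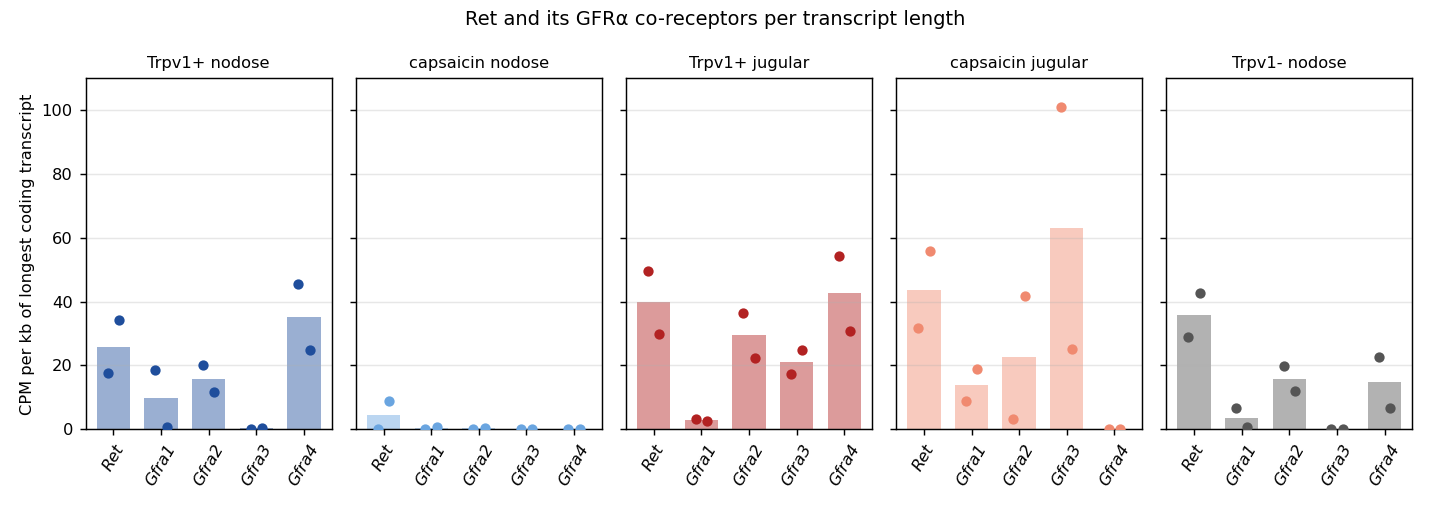
Ret and the 4 GFRα co-receptor genes in CPM per kb of the longest coding transcript, with a bar for the mean of each group and a point for each of its 2 pools. Gfra3 has the highest mean in the capsaicin jugular group (63.1), where it leads in 1 of the 2 pools, and is near 0 in the 3 nodose groups, Gfra4 is at 0 in both capsaicin groups, and all co-receptor bars of the capsaicin nodose group are under 1.

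The genes most like each receptor were taken by Pearson's r of log2(CPM + 1) over the 10 pools, among 7496 genes at 10 CPM or more in both pools of a group. These are descriptions, since the pools share a library design and fall into separate selections and ganglia. For Ntrk2 the nearest were Vdac1 (r = 0.967), Cygb (0.944) and Ckmt1 (0.943), and for Gfra3 they were Serpinb8 (0.989), Ccdc51 (0.987) and Smim5 (0.986). For Ntrk3 they were Abhd13 (0.997), Prkg2 (0.99) and Edem1 (0.987). These r values rest on few pools, since the Trpv1+ nodose, capsaicin nodose and capsaicin jugular pools had no Ntrk3 read. By Spearman's rank correlation the same 3 genes were at 0.932, 0.775 and 0.712. Ngfr was nearest to B3glct (0.947), Syn2 (0.941) and Ero1l (0.941), Ret to Slc35e2 (0.976), Ogfrl1 (0.939) and Ube2e3 (0.938), and Gfra1 to Smim15 (0.944), Slc38a9 (0.923) and Ghr (0.922). Gfra2 was nearest to Slc24a2 (0.968), Mcrs1 (0.964) and Mrpl2 (0.963). The genes nearest to Gfra4 were 2 ribosomal protein genes, Rps21 (0.992) and Rpl38 (0.992), and the mitochondrial copper chaperone Cox17 (0.991). Among the receptor genes themselves, r was -0.91 for Ntrk2 with Gfra3 and 0.83 for Ret with Gfra2 over the same 10 pools.

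The ligands, co-receptors and signalling partners of these receptors were measured in 86 genes in 4 lists. Of 8 ligand genes 1, Bdnf, reached 10 CPM in both pools of a group. Bdnf, the TrkB ligand, was at 88.2 and 52.1 CPM in Trpv1+ nodose, 43.0 and 91.0 CPM in Trpv1+ jugular, 236 and 921 CPM in capsaicin nodose, 405 and 39.4 CPM in capsaicin jugular and 93.4 and 37.1 CPM in Trpv1- nodose neurons. Its ganglion difference in the Trpv1 selection was 0.05 ± 0.75 (edgeR adjusted p = 0.997). Nrtn reached 16.1 CPM in 1 pool and Gdnf 13.1 CPM in 1 pool, and Ntf3, the gene of NT-3, had no read in any pool. The list of co-receptors and alternative receptors had 8 of 18 genes at that level, the adaptors 19 of 35 and the signalling and feedback genes 21 of 25.

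Of the partner genes, 0 of 57 tested were called by edgeR in the Trpv1 selection, 0 of 46 in the capsaicin selection and 0 of 62 between Trpv1+ and Trpv1- nodose neurons, with 8, 4 and 10 at an unadjusted p under 0.05, beside 11.9%, 14.1% and 11.1% of all genes. Their median log2 difference was -0.06, -0.05 and -0.07, beside 0.027, -0.018 and 0.015 over all genes tested. DESeq2 called 4, 3 and 2, where it called 3.44%, 6.78% and 2.26% of all genes, so that the last 2 counts are near the share of all genes. In the Trpv1 selection these were Bex1 and Sos1, higher in nodose, and Sorl1 and Lingo1, lower; in the capsaicin selection Ptprf, Dok1 and Dok4, lower in nodose; and in the third comparison Lrig2 and Mapk7, lower in Trpv1+. They were named after their values were seen. In the joint fit edgeR called 1 of 57 partner genes, where it called 0.825% of all genes. This gene was Ncam1, which encodes an adhesion molecule that can serve as a GDNF receptor beside GFRα1. Ncam1 was at 214 and 163 CPM in Trpv1+ nodose, 38.1 and 24.3 CPM in Trpv1+ jugular, 832 and 3120 CPM in capsaicin nodose and 462 and 553 CPM in capsaicin jugular neurons. It was higher in nodose neurons by 2.09 ± 0.45 (edgeR adjusted p = 0.0983, DESeq2 adjusted p = 0.00877). No partner gene was called once any of 6 of the 8 pools was left out, namely either Trpv1+ nodose pool, either Trpv1+ jugular pool, the second capsaicin nodose pool or the second capsaicin jugular pool.

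Between the selections, 4 partner genes of 57 passed edgeR's test, where 7.29% of all genes tested did, which is no higher share than that of all genes. DESeq2 called 11 higher and 8 lower in tdTomato-selected pools there, beside 16.4% of all genes. The agonist exposure, core, strain, depth and cell number change with the selection here too. Ngfrap1, a p75-binding adaptor, was higher in tdTomato-selected pools by 1.42 (edgeR adjusted p = 0.0757, but 0.379 and no call in DESeq2). Mapk3, which encodes ERK1, was higher there by 1.60 ± 0.31 (edgeR adjusted p = 0.0127). Beside these 2 values, the median log2 difference over all genes tested in this comparison was 0.961. DESeq2 gave log2 differences of 0.88 for Ngfrap1 and 1.1 for Mapk3. Ncam1 was lower (log2 difference -3.15 ± 0.47, adjusted p = 0.00275), and Spry2, a feedback inhibitor of receptor tyrosine kinase signalling, was at 0.299 to 12.7 CPM in the 4 Trpv1+ pools and 329 to 625 CPM in the 4 capsaicin pools (log2 difference -6.19 ± 1.25, adjusted p = 0.0165). The most abundant other partners were Ptprs and Ptprf among the co-receptors, Arhgdia and Maged1 among the adaptors and Rit2 among the signalling genes, with Arhgdia, a GDP dissociation inhibitor that binds p75, at 365 to 1180 CPM over the 10 pools.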

How the data were processed

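RNA from 10 pools of hand-picked vagal neurons was reverse transcribed with dT priming, amplified by PCR and sequenced as short paired ends on an Illumina instrument. The authors aligned the reads to mm10 with TopHat2 2.0.9 and Bowtie2 2.1.0.0 and counted them per gene with HTSeq. The authors deposited the counts without normalization, 1 value for each gene symbol. CASAVA 1.8.2 is named in the submitters' processing notes, and the annotation used for counting is not given in the sources used here. Reads carry no molecular identifiers, so floors and intervals cover counting error only.

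Samples were grouped by their labels. CPM was computed as counts over DESeq2 size factors of the 10 pools, scaled by the geometric mean total. The main test was edgeR 4.0.16 (R 4.3.3; TMM, filterByExpr, glmQLFit and glmQLFTest), with Benjamini-Hochberg adjustment over all genes tested. Calls required an adjusted p no higher than 0.1, a change of 2-fold or more and, in both pools of a compared group, 10 CPM or more. SE is the size of the log2 fold change over the square root of F. Alternatives were DESeq2 1.42.0, RLE size factors, no low-count filter, a replicate block, thinned counts, all 6 pools of the Trpv1 selection, no CPM requirement and each pool left out. Gene positions came from GENCODE vM21. The scripts were tested on simulated data. All 8 receptor genes, partner genes called or among the 3 most abundant of a list, the 3 genes most like each receptor and the markers are named. Some genes of the marker and partner lists are not reported here. The receptor genes and lists were chosen with earlier results of these data known.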

Additional observations from a re-analysis of the deposited data

How the results depend on the processing

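The replicate numbers showed no sign of pairing: deviations of same-numbered pools from their group means correlated at -0.027 to 0.022 over 7504 genes. The 2 pools of a group differ widely (r of log2(CPM + 1) from 0.556 to 0.738). An effect of a shared mouse could therefore go unseen, and whether pools are paired stays unknown. With a replicate block the number of receptor genes called stayed at 0 in 5 comparisons and at 1 between the selections, and the partner gene called in the joint fit was lost (0). DESeq2 called 1 receptor gene in the Trpv1 selection, 4 in the capsaicin selection, 1 between Trpv1+ and Trpv1- nodose neurons, 3 in the joint fit, 3 for the interaction and 2 between the selections (16.4% of all genes), and 4, 3, 2 and 11 partner genes in the first 4, where it called 3.44%, 6.78%, 2.26% and 8.34% of all genes. Without the low-count filter edgeR called 2 receptor genes in the capsaicin selection and 2 in the joint fit, and 1 and 3 partner genes. Of all genes it called 1% and 1.42% in these 2 fits. Thinning gave 0 partner genes in the joint fit. With 1 pool left out, receptor genes called ranged from 0 to 0 in the Trpv1 selection, the capsaicin selection, the joint fit and between Trpv1+ and Trpv1- nodose neurons, from 0 to 1 for the interaction, and from 1 to 1 between the selections, and partner genes called in the joint fit from 0 to 1. Of the log2 differences of single receptor genes, 16 of 192 with a pool left out and 2 under other settings changed sign. With a pool left out, the difference between ganglia ranged from -1.89 to 2.67 for Gfra1 and from -0.79 to 0.15 for Gfra4 in the Trpv1 selection, from -5.14 to 12.12 for Ngfr in the capsaicin selection, and from -4.05 to 0.34 for Gfra1 and from -0.65 to 0.29 for Gfra4 in the joint fit. Between Trpv1+ and Trpv1- nodose neurons the ranges were -0.8 to 0.11 for Ntrk2, -2.2 to 3.99 for Gfra1 and -0.41 to 0.47 for Gfra2. For the interaction they were -9.19 to 8.21 for Ngfr and -2.07 to 3.84 for Gfra3. The sign changes came without the first Trpv1+ nodose pool (Gfra1 between ganglia of the Trpv1 selection, and Ntrk2, Gfra1 and Gfra2 between Trpv1+ and Trpv1- nodose neurons), the second Trpv1+ nodose pool or the first Trpv1+ jugular pool (Gfra4), either capsaicin nodose pool (Gfra1 in the joint fit), the first of them (Ngfr in the capsaicin selection) and the second Trpv1- nodose pool (Gfra2). The interaction changed sign without the second Trpv1+ nodose pool (Gfra3) and without the second Trpv1+ jugular, capsaicin nodose or capsaicin jugular pool (Ngfr). Among values that kept their sign, the difference between ganglia ranged from -11.38 to -5.35 for Gfra3 in the Trpv1 selection. With capsaicin-selected pools it ranged from -12.5 to -2.85 for Ret, from -9.14 to -4.65 for Gfra1, from -10.0 to -4.22 for Gfra2, from -9.79 to -7.88 for Gfra3 and from 8.32 to 11.66 for Ntrk2. Gfra2 between Trpv1+ and Trpv1- nodose neurons also became -0.05 after thinning and -0.01 in the fit to 6 pools. The cause of the differences between tools was not tested.

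With plain totals 11 of 40 group means, and with TMM-scaled totals 13 of 40, moved by more than 1 SD. Ranked by Spearman's rank correlation, the 3 genes nearest to a receptor gene shared 0 to 2 genes with those by Pearson's r. At the depth of the capsaicin pools, levels under 0.118 to 0.176 CPM cannot be told from 0.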
